A study of Homo sapiens with 8 samples.

Results

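The nuclear encoded subunits of the mitochondrial respiratory chain and ATP synthase were followed in HepG2, an established liver tumour line. Members were taken by gene symbol. The patterns for NDUFA, NDUFB, NDUFC, NDUFS and NDUFV subunits, SDHA to SDHD, UQCR, COX4 to COX8 and ATP5 took 93 symbols of 24462 genes in the table. Of these, 10 were left out, namely 3 antisense RNAs, 2 read-through transcripts, 2 pseudogenes, 2 assembly factors (COX7A2L and ATP5SL) and ATP5S, a coupling factor outside the complex. The remaining 83 genes were 36 of complex I, 4 of complex II, 9 of complex III, 18 of complex IV and 16 of complex V. NDUFA4 and its relative NDUFA4L2 were placed with complex IV, where the NDUFA4 protein is now assigned. The symbol patterns do not take CYC1 or NDUFAB1, which are given beside the other mitochondrial genes. HepG2 with EDN1 overexpression and mock HepG2 each had 4 RNA sequencing libraries (EDN1 1 to 4 and mock 1 to 4). The EDN1 product is processed to endothelin-1, a peptide that constricts blood vessels. The labels give no vector, clone or selection for either group, and do not state whether cultures were separate, so p-values reflect only the spread among these libraries, which may be technical.

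Complex I (NADH dehydrogenase) and complex II (succinate dehydrogenase) pass electrons to ubiquinone, complex III passes them to cytochrome c and complex IV (cytochrome c oxidase) passes them to oxygen. Complexes I, III and IV pump protons across the inner membrane, and complex V (ATP synthase) uses that gradient to make ATP. All of these complexes except complex II also hold subunits encoded by mitochondrial DNA. Hepatocytes depend on this chain for the energy cost of gluconeogenesis, urea synthesis and protein secretion. The table held 0 rows of mitochondrially encoded genes, so the nuclear share alone of each complex is described.

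Total counts were 8571252 to 11686180 per library in EDN1 overexpression and 8409173 to 14932385 in mock. The EDN1 gene itself had 2284 to 4764 counts per library in EDN1 overexpression and 9 to 29 in mock, so every library matched its label. All 10 hepatocyte and HepG2 markers were above 10 CPM (counts scaled to a common library size) on average. Of 5 fibroblast markers none reached 10 CPM on average and LUM was at 0 counts. Of the blood markers, CD3E had 0 counts, PTPRC at most 1 and HBB at most 34 in any library, while LYZ had 351 to 793 CPM in EDN1 overexpression and 395 to 780 CPM in mock. Of 4 muscle markers none reached 10 CPM and their sum was at most 2.96 CPM in any library. Along the first principal component of all genes tested, 3 libraries (EDN1 3, EDN1 4 and mock 4) lay at 17.1 to 48.4. The other 5 lay at -30.2 to 2.87, with mock 2 nearest to the 3. The 3 are named the second library set, and the 5 are named the first. The split is not clean, as mock 2 (2.87) lay nearer to EDN1 3 (17.1) than to the next of the 5, EDN1 2 (-21.4). The first component held 40.2% of the variance and the second 29.7%. Along the second, the 3 did not lie together, with EDN1 3 at 45.8, mock 4 at 5.54 and EDN1 4 at -12.8. The 5 lay at -43.4 (mock 2) to 16.0 (EDN1 1) on it. No label gives a batch, and the sets rest on these counts themselves. Values within the sets are therefore given for the main results, with the lone mock library of the second set assumed to vary like the others.

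Respiratory chain transcripts did not differ detectably between EDN1 overexpression and mock. Members held 1.22% to 1.53% of all counts per library in EDN1 overexpression and 1.23% to 1.31% in mock. Of the 83 members, 77 passed the filter on low counts, with mean levels from 13.4 CPM (NDUFA3) to 1280 CPM (ATP5L). With edgeR's quasi-likelihood test and p-values adjusted over 12577 genes by Benjamini-Hochberg, 0 of 77 members passed the threshold of 0.05 in either direction, against 0.00795% of all genes tested (EDN1 alone). DESeq2 and limma voom also called 0 members after adjustment. At an unadjusted p under 0.05 edgeR and limma voom had 0 members and DESeq2 had 1, against 2.85% of all genes tested in edgeR. In bulk RNA, fewer cells of a type and less RNA per cell cannot be told apart.

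The fold changes were small as well as not called. Of the 77 members 46 had a positive and 31 a negative log2 fold change, or 59.7% positive against 50.3% of all genes tested. The median was 0.05, against 0.00 over all genes, and single members ran from -0.60 (NDUFA4L2) to 0.34 (NDUFB7). The count of positive members ran from 34 without EDN1 1, where the median was -0.03, to 56 in the first library set alone, and was 53 with the set as a term in the fit. The median was 0.04 in the first set alone and 0.07 in the second alone. In 57 members the 95% interval of the fold change stayed inside 1.5-fold both ways, or 74.0%, against 38.2% of all genes tested. It stayed inside 2-fold for 75 of 77, and NDUFA7 and NDUFA4L2 were the exceptions. The median SD between libraries of a group was 0.21 on the log2 CPM scale for the members, against 0.32 for all genes tested.

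**Figure D1:**
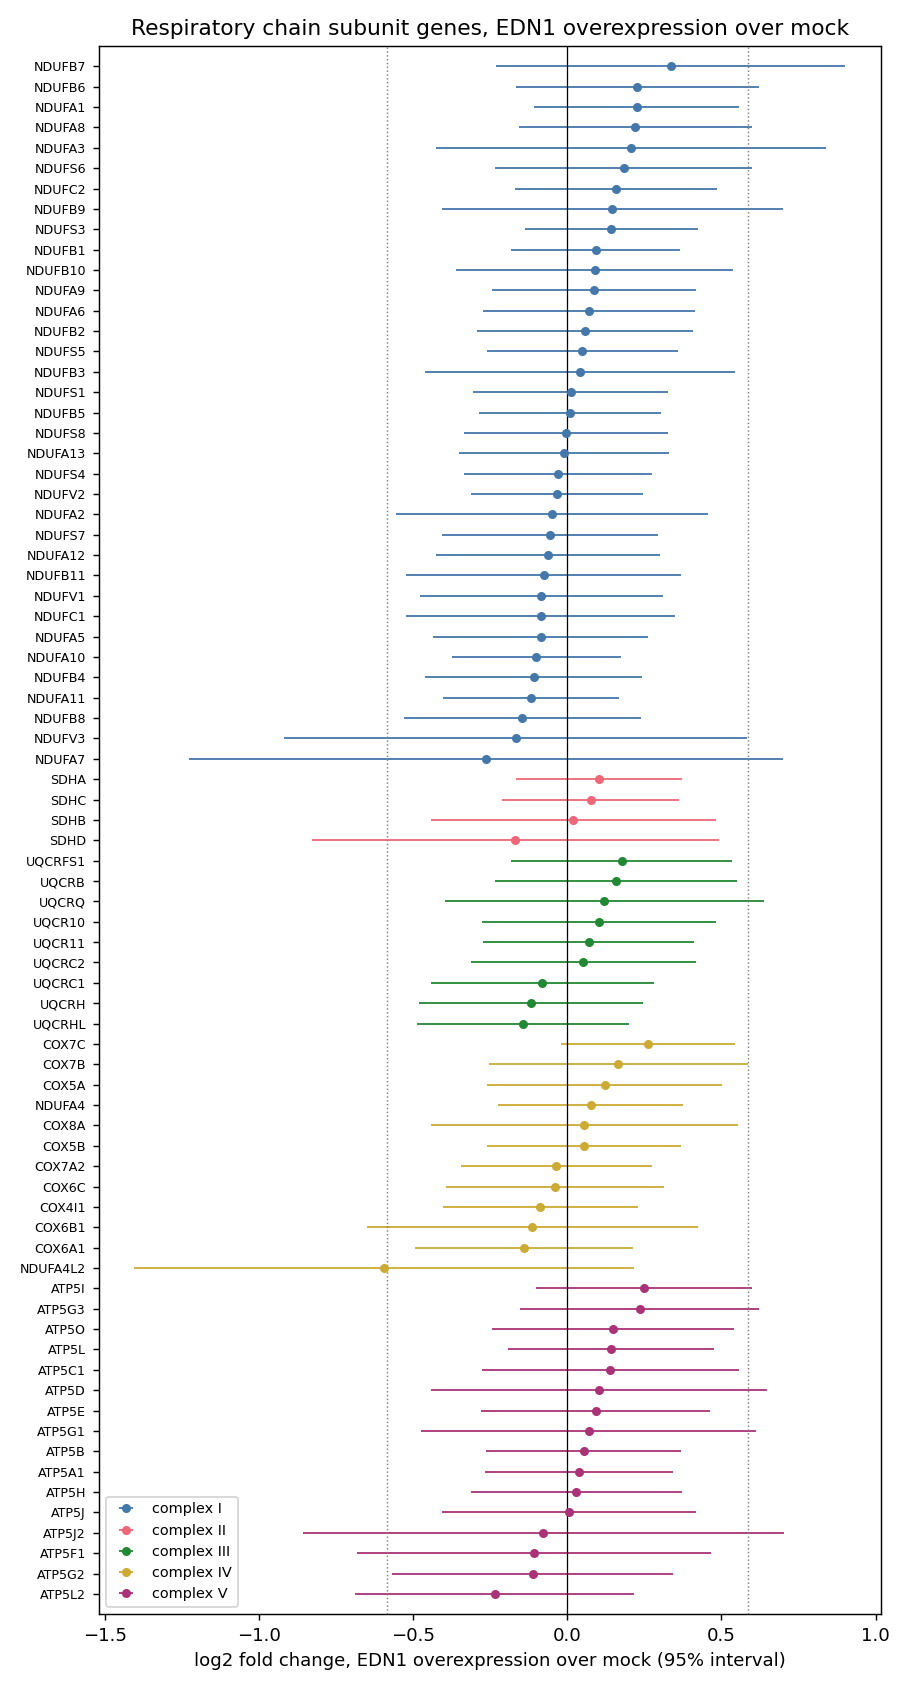
The log2 fold change of EDN1 overexpression over mock (x axis) is shown for the tested members reported here, one per row and grouped by complex, with 95% intervals from edgeR's quasi-likelihood fit and dotted lines at 1.5-fold. Every interval includes 0, and the COX7C interval comes nearest to leaving it.

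Summed over its members, no complex had groups that did not overlap. Complex I summed to 4280 ± 367 CPM in EDN1 overexpression and 4166 ± 147 CPM in mock (mean ± SD, n = 4 each, as for all sums here). Complex II summed to 283 ± 19.99 CPM in EDN1 overexpression and 271 ± 18.0 CPM in mock. The sums of complex III were 2145 ± 144 CPM in EDN1 overexpression and 2086 ± 115 CPM in mock. Those of complex IV were 1961 ± 140 CPM in EDN1 overexpression and 1948 ± 184 CPM in mock. The difference of the means was smaller than the SD of either group in each of these 4 complexes. Complex V summed to 4975 ± 487 CPM in EDN1 overexpression and 4619 ± 121 CPM in mock, a ratio of 1.08. EDN1 1 and EDN1 3 were the high libraries for complex V, with 5312 and 5469 CPM, while EDN1 2 and EDN1 4 had 4496 and 4623 CPM, within the mock range of 4453 to 4710 CPM. The complex V ratio was 1.06 in the first set alone and 1.10 in the second alone. For complexes I to IV the ratios ran from 0.998 (complex III) to 1.06 (complex II) in the first set and from 1.03 (complex III) to 1.10 (complex II) in the second.

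**Figure D2:**
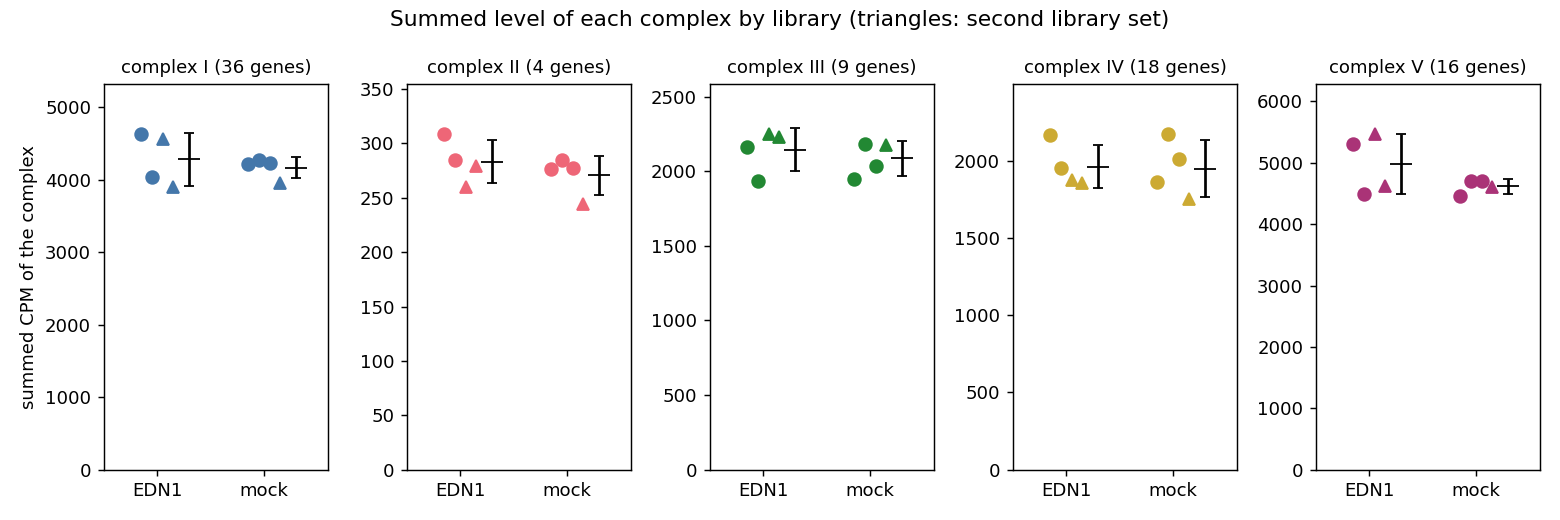
Summed CPM of the members of each complex (y axis, from 0) is shown by library for EDN1 overexpression and mock, with bars at the mean ± SD of 4 libraries and triangles for the second library set. The groups overlap in every complex, and the spread of complex V is wider in EDN1 overexpression (SD 487) than in mock (SD 121).

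Complex I was measured for all 36 of its members, 19 with a positive and 17 with a negative fold change and a median log2 fold change of 0.01. Its 7 nuclear encoded core subunits, which carry the flavin and iron-sulfur clusters of the electron path or line the ubiquinone site, had 3 positive and 4 negative fold changes and a median log2 fold change of -0.00. NDUFV1, which holds the flavin, was the lowest of them at -0.08 (SE 0.18). Among accessory subunits, which surround the core and are needed for its assembly and stability, NDUFB7 had the highest and NDUFA7 the lowest fold change. NDUFB7 had 105, 98.2, 190 and 134 CPM in EDN1 1 to 4, against 75.6, 96.6, 96.4 and 149 CPM in mock 1 to 4. NDUFA7 had 69.5, 67.6, 23.8 and 21.5 CPM in EDN1 1 to 4, against 63.3, 51.8, 78.2 and 26.1 CPM in mock 1 to 4. In these genes the libraries parted by library set and not by group, with EDN1 3, EDN1 4 and mock 4 high for NDUFB7 and low for NDUFA7. Their log2 fold changes were 0.34 (SE 0.26) and -0.26 (SE 0.44) over all libraries, 0.19 and 0.09 in the first set alone and 0.10 and -0.21 in the second alone.

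Complex II is the smallest complex and is wholly nuclear encoded. SDHA, the flavoprotein that oxidises succinate, had 116, 100.5, 118 and 113 CPM in EDN1 1 to 4, against 104, 107, 105 and 99.6 CPM in mock 1 to 4. SDHB, the iron-sulfur subunit, had 48.3, 44.1, 29.4 and 37.4 CPM in EDN1 1 to 4, against 45.3, 47.4, 35.5 and 29.02 CPM in mock 1 to 4. The groups overlapped in both genes. The membrane anchor gene SDHC had 131, 122, 106 and 114 CPM in EDN1 1 to 4, against 111, 111, 123 and 105 CPM in mock 1 to 4. The other anchor gene, SDHD, had 14.1, 17.8, 6.49 and 15.5 CPM in EDN1 1 to 4, against 15.8, 19.6, 14.02 and 11.1 CPM in mock 1 to 4, with EDN1 3 the lowest of the 8. Log2 fold changes were 0.10 (SE 0.12) for SDHA, 0.02 (SE 0.21) for SDHB, 0.08 (SE 0.13) for SDHC and -0.17 (SE 0.30) for SDHD. In the first set alone they ran from -0.05 (SDHD) to 0.14 (SDHC), and in the second alone from -0.03 (SDHD) to 0.20 (SDHA).

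Complex III had 6 members with a positive and 3 with a negative fold change, and a median log2 fold change of 0.07. UQCRFS1, the Rieske iron-sulfur subunit that takes electrons from ubiquinol, had 83.5, 61.5, 80.9 and 61.2 CPM in EDN1 1 to 4, against 68.3, 55.6, 71.7 and 58.6 CPM in mock 1 to 4. It had the highest fold change of the complex, 0.18 (SE 0.16) on the log2 scale, with 0.15 and 0.27 within the first and second sets. UQCRB, which encodes a subunit that helps to form a ubiquinone site, had 541, 470, 679 and 714 CPM in EDN1 1 to 4, against 488, 561, 470 and 634 CPM in mock 1 to 4. It was highest in the 3 libraries of the second set, and its log2 fold change of 0.16 (SE 0.18) was -0.00 in the first set alone and 0.13 in the second alone. UQCRHL, an intronless copy of the hinge protein gene UQCRH, had the lowest fold change, -0.14 (SE 0.16), with 92.8 ± 13.7 CPM in EDN1 overexpression and 103 ± 12.9 CPM in mock (SD, n = 4 each).

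Complex IV was expressed through its widely used isoforms. Of its 18 members 12 passed the filter, 6 with a positive and 6 with a negative fold change. COX4I1, the common form of the regulatory subunit 4, averaged 408 ± 37.8 CPM in EDN1 overexpression and 433 ± 46.9 CPM in mock (SD, n = 4 each). COX4I2, its lung and hypoxia isoform, had 0 counts in all 4 EDN1 overexpression libraries and at most 2 in mock. COX6A2, the heart and muscle isoform of COX6A1, and COX8C, a testis isoform, had 0 counts in all 8 libraries, which allows up to 0.357 CPM in the library of lowest depth (3 counts of its total, for counting error only). COX7A1, another heart and muscle isoform, had at most 3 counts in any library. COX7B2 had at most 1 count, and COX6B2, a testis isoform, at most 9. Their common partners were all measured. COX6A1 averaged 105 ± 11.1 CPM in EDN1 overexpression and 115 ± 20.8 CPM in mock. COX6B1 averaged 124 ± 36.5 CPM in EDN1 overexpression and 134 ± 33.8 CPM in mock. COX7A2 averaged 130 ± 13.02 CPM in EDN1 overexpression and 133 ± 14.2 CPM in mock, and COX8A 268 ± 71.2 CPM in EDN1 overexpression and 258 ± 52.4 CPM in mock. Log2 fold changes of these 4 genes lay between -0.14 (COX6A1) and 0.06 (COX8A). In the first set alone they lay between -0.10 (COX6A1) and 0.20 (COX8A), and in the second alone between -0.08 (COX6A1) and 0.21 (COX8A).

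COX7C was the only member whose groups did not overlap. It encodes a small subunit of complex IV, and had 220, 198, 210 and 205 CPM in EDN1 1 to 4, against 164, 196, 163 and 173 CPM in mock 1 to 4. The lowest EDN1 overexpression library, EDN1 2, lay just above the highest mock library, mock 2. Such a separation was seen in 2.04% of all genes tested, upwards in 1.38% and downwards in 0.668%, and 1 of 77 members is close to that background. The log2 fold change was 0.26 (SE 0.13, 95% interval of the fold 0.986 to 1.46), with 0.26 within each library set. It did not pass the threshold in edgeR (Benjamini-Hochberg adjusted p = 1.00, unadjusted p = 0.0662).

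NDUFA4, a late-joining subunit of complex IV, and NDUFA4L2, its relative induced by hypoxia through HIF-1, were both measured. NDUFA4 averaged 114 ± 14.2 CPM in EDN1 overexpression and 108 ± 5.16 CPM in mock (SD, n = 4 each). NDUFA4L2 had 13.7, 20.3, 6.84 and 6.70 CPM in EDN1 1 to 4, against 21.9, 15.4, 22.6 and 11.8 CPM in mock 1 to 4. The groups overlapped, with EDN1 2 above mock 2 and mock 4. The log2 fold change of NDUFA4L2 was -0.60 (SE 0.37), the lowest of all members, with -0.24 and -0.81 within the first and second sets. It was -0.44 with the library set as a term in the fit. Over the alternatives it ran from -0.98 (without EDN1 2) to -0.24 (first set alone).

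Complex V had 12 members with a positive and 4 with a negative fold change, and a median log2 fold change of 0.06. The 5 subunits of the catalytic F1 head (ATP5A1, ATP5B, ATP5C1, ATP5D and ATP5E) ran from 0.04 (ATP5A1) to 0.14 (ATP5C1) on the log2 scale. They ran from 0.01 (ATP5C1) to 0.20 (ATP5D) in the first set alone and from 0.00 (ATP5C1) to 0.28 (ATP5D) in the second alone. ATP5I, a small membrane subunit, had the highest fold change of the complex. It had 195, 142, 203 and 146 CPM in EDN1 1 to 4, against 155, 150, 135 and 138 CPM in mock 1 to 4. EDN1 1 and EDN1 3 lay above all mock libraries and EDN1 2 and EDN1 4 within their range, and the log2 fold change was 0.25 (SE 0.16), with 0.20 and 0.33 within the first and second sets. ATP5L, which encodes subunit g of the membrane part, averaged 1343 ± 155.5 CPM in EDN1 overexpression and 1218 ± 111 CPM in mock. Its copy ATP5L2 had the lowest fold change, -0.24 (SE 0.20), with 24.9 ± 1.96 CPM in EDN1 overexpression and 29.4 ± 8.77 CPM in mock (SD, n = 4 each), and its log2 fold change was 0.066 within the second set alone.

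The 3 genes of subunit c, ATP5G1, ATP5G2 and ATP5G3, encode the same mature protein of the rotating ring with different mitochondrial import sequences. Together they summed to 1398 ± 173 CPM in EDN1 overexpression and 1290 ± 79.0 CPM in mock (SD, n = 4 each). ATP5G1 had 395, 265, 242 and 176 CPM in EDN1 1 to 4, against 242, 316, 279 and 191 CPM in mock 1 to 4. ATP5G2 had 381, 389, 262 and 247 CPM in EDN1 1 to 4, against 347, 381, 397 and 256 CPM in mock 1 to 4. ATP5G3 had 750, 673, 1049 and 765 CPM in EDN1 1 to 4, against 628, 613, 716 and 795 CPM in mock 1 to 4. The second library set was low in ATP5G1 and ATP5G2 and high in ATP5G3. ATP5G3 held 64.03% to 67.5% of the counts of these genes in the second set and 46.8% to 51.6% in the first, while their sum was 1327 ± 198 CPM in the second set (SD, n = 3) and 1354 ± 114 CPM in the first (SD, n = 5).

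Single members differed between the library sets in both directions, more often downwards in the second set, while the sum over all members did not differ beyond its spread. All values between the sets are descriptions with no test, since the sets were formed from these counts. The members together summed to 13340 CPM on average in the second set and 13382 CPM in the first, a ratio of 0.997. Single libraries ran from 12724 to 14409 CPM in the second set and from 12702 to 14580 CPM in the first. By complex this ratio was 0.967 for I, 0.912 for II, 1.08 for III, 0.899 for IV and 1.03 for V. With the group kept in the fit, the difference of the second from the first set was positive in 27 of 77 members, against 6355 of 12577 genes tested. Its median on the log2 scale was -0.08 for the members, against 0.00 over all genes tested. In that fit 2 members were more than 1.5-fold higher in the second set (NDUFB7 and NDUFB9), against 7.66% of all genes tested. A further 10 were more than 1.5-fold lower, against 12.5%. More than 2-fold, 0 members were higher, against 1.53% of all genes tested, and 4 were lower (NDUFA7, ATP5J2, NDUFV3 and NDUFA4L2), against 4.64%. The difference between the sets was larger than that between the groups in 58 of 77 members, or 75.3%, against 69.6% of all genes tested. The 3 libraries of the second set lay above all 5 of the first in 9 members and below them in 17, against 9.83% and 13.4% of all genes tested. NDUFA7 averaged 23.8 CPM in the second set and 66.1 CPM in the first. ATP5J2, subunit f of the membrane part of complex V, averaged 49.6 CPM in the second set and 106.6 CPM in the first. NDUFV3, an accessory subunit near the NADH site, averaged 37.3 CPM in the second set and 76.6 CPM in the first. NDUFB9, an accessory subunit of the membrane arm, averaged 305 CPM in the second set and 185 CPM in the first. ATP5C1, the central stalk of ATP synthase, averaged 128 CPM in the second set and 90.7 CPM in the first.

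**Figure D3:**
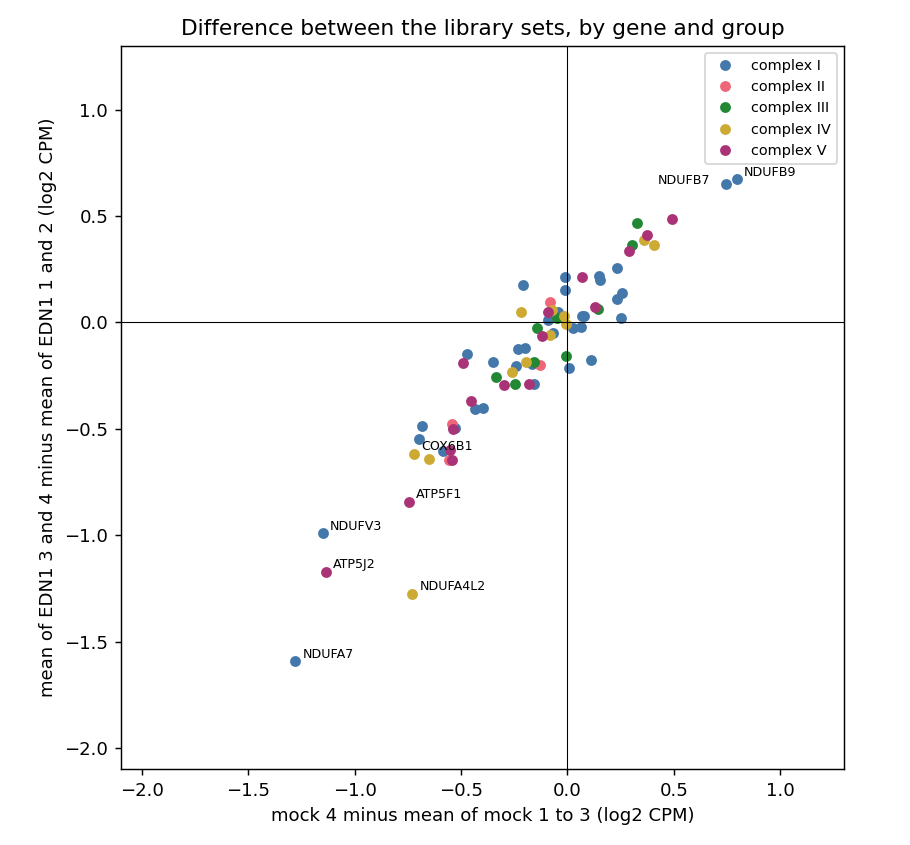
The log2 CPM difference of the second from the first library set is plotted for the 77 tested members, within EDN1 overexpression (y axis) against within mock (x axis), with colours for the complexes. NDUFA7 lies at -1.59 within EDN1 overexpression and -1.28 within mock, and NDUFB9 at 0.67 and 0.80. The sign was the same in both groups for 62 of 77 members, or 80.5%, against 81.4% of all genes tested.

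Several members share their sequence or their exons with other rows of the table, and in 4 of 6 such pairs the split of the counts parted by library set. How reads with several matches were counted is not given in the sources used here. The split of a pair is uncertain. ATP5E, which encodes the epsilon subunit of the F1 head, and its pseudogene ATP5EP2 differ at 6 coding bases (96.2% identity). Their coding sequences are shown for the small number of differing bases. The library kit samples transcript ends, and sequence outside the coding part was not compared. How well reads of these rows can be told apart was therefore not tested. The sequences are GENCODE 29 transcripts with the differing bases in capitals.
ATP5E: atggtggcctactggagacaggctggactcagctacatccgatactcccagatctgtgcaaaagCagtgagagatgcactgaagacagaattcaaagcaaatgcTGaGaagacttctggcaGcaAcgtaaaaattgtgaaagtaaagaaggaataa
ATP5EP2: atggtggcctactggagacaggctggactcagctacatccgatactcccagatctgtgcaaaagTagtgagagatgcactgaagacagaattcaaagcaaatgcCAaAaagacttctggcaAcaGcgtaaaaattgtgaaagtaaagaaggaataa
ATP5EP2 held 23.5% and 24.1% of the counts of this pair in EDN1 3 and EDN1 4 and 21.3% in mock 4, against 29.1% to 33.3% in the first set. The pair together summed to 686 ± 131 CPM in EDN1 overexpression and 655 ± 64.4 CPM in mock (SD, n = 4 each). The coding sequences of UQCRH and UQCRHL, shown in the same way, differ at 4 of 276 bases (98.6% identity).
UQCRH: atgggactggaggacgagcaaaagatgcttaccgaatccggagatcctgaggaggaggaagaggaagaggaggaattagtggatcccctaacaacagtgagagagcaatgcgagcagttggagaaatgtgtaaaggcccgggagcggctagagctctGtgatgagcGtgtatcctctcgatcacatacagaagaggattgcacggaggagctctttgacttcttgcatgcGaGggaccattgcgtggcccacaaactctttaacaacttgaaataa
UQCRHL: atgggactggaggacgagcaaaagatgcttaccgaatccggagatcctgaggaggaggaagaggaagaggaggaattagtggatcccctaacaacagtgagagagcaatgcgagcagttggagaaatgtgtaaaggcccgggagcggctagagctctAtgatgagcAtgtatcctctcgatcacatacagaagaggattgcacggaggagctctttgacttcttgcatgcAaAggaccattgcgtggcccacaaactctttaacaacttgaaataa
UQCRHL held 14.2% to 15.8% of the counts of its pair in the second set and 14.2% to 16.7% in the first, so the sets overlapped here.

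The pseudogene of UQCRB, UQCRBP1, held 17.3% to 18.3% of the counts of the UQCRB pair in the second set and 31.3% to 34.3% in the first. The pair summed to 798 ± 75.2 CPM in EDN1 overexpression and 760 ± 64.8 CPM in mock (SD, n = 4 each). The read-through row ATP5J2-PTCD1, which begins in ATP5J2, went the other way. It held 64.04% to 73.0% of the pair's counts in the second set and 41.6% to 54.0% in the first. ATP5J2-PTCD1 itself averaged 114 CPM in the second set and 104 CPM in the first. ATP5J2 averaged 49.6 CPM in the second set and 106.6 CPM in the first, so the higher share mostly restates the lower ATP5J2. Which exons the tags of a read-through row came from is not given, so its share need not be a split of the same reads. The read-through row NDUFC2-KCTD14 held 1.90% to 5.31% of the NDUFC2 pair in the second set and 3.48% to 7.46% in the first. ATP5L2 held 1.52% to 1.72% of the ATP5L pair in the second set and 1.90% to 3.04% in the first.

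**Figure D4:**
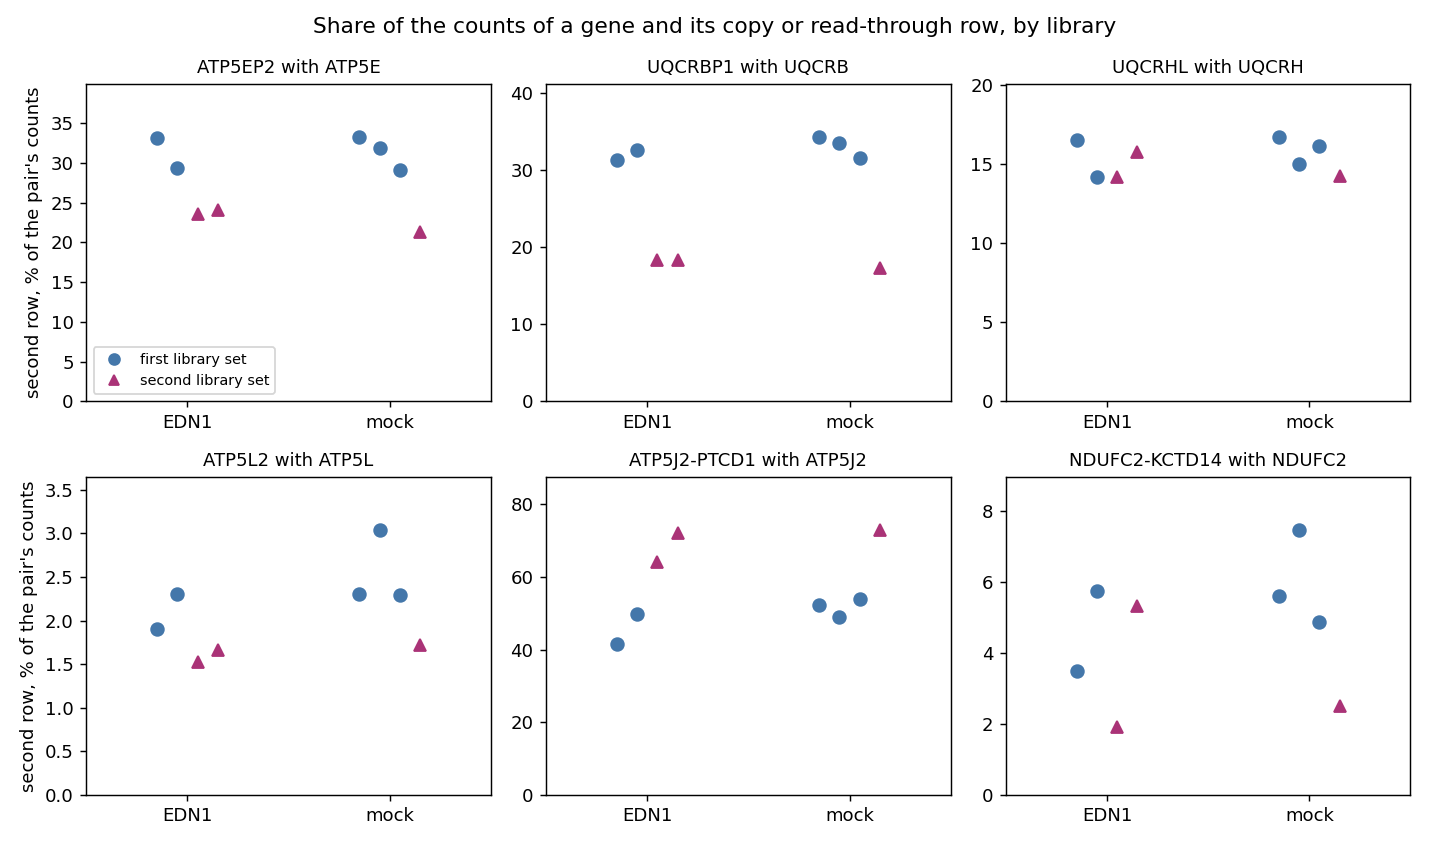
The share of the second named row in the counts of a pair (y axis, percent, from 0) is shown by library for EDN1 overexpression and mock, with circles for the first and triangles for the second library set. UQCRBP1 sits at 17.3% to 18.3% in the 3 libraries of the second set and at 31.3% to 34.3% in the first, while the groups overlap in each pair.

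Promoters of these genes are known to share binding motifs of NRF1, of ETS factors such as GABP, and of YY1, which are thought to tune respiratory genes together. RefSeq promoter windows (GRCh38.p14, 250 bases before to 50 after the start) matched 67 of the 83 members and were searched on both strands. A form of the NRF1 motif, GCGC followed by NN and GCGC, was present in 17 of 67 members (25.4%), against 8.32% of all 35116 windows. CCGGAAG, a form of the ETS motif, was present in 19 (28.4%), against 10.3%, and AANATGGCG, a form of the YY1 motif, in 16 (23.9%), against 3.19%. These motifs do not overlap each other in the windows printed here. Each member gave 1 window, while the 35116 pool all windows of all genes, tested here or not. The shares therefore compare unlike sets, and no share over the genes tested was taken. The windows of NDUFB7, ATP5C1 and NDUFA7 are shown since each holds another of the motifs, in capitals. NDUFB7 and ATP5C1 were high and NDUFA7 low in the second library set. NDUFV3 and NDUFA4L2, also low in that set, held none of the motifs in their windows. Whether a motif goes with the difference between the sets was not tested. The printed windows span chr19:14572017-14572316 on the minus strand for NDUFB7, chr10:7787927-7788226 on the plus strand for ATP5C1 and chr19:8321326-8321625 on the minus strand for NDUFA7.
NDUFB7: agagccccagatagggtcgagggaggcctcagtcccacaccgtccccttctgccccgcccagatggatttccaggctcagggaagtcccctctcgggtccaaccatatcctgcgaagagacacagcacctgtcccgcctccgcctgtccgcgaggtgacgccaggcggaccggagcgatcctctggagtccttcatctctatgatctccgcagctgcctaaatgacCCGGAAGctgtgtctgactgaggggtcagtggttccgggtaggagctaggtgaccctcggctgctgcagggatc
ATP5C1: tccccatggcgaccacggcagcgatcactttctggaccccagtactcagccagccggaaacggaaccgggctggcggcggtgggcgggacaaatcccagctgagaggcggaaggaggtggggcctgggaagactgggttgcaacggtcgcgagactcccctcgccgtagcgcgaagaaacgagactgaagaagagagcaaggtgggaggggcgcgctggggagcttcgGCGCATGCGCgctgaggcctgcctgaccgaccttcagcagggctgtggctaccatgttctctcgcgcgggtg
NDUFA7: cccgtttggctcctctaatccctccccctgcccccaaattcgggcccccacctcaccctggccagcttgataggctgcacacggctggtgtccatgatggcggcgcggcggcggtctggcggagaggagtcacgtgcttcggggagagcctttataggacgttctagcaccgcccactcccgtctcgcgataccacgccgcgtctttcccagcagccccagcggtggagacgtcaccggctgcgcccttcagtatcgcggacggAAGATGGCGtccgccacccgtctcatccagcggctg
By complex, at least 1 of the motifs was present in 19 of 31 windows of complex I, 3 of 3 of complex II, 6 of 7 of complex III, 6 of 15 of complex IV and 6 of 11 of complex V. A match is a description of the letters and not of a bound site.

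Among other mitochondrial genes there were 0 genes past the threshold in the lists in edgeR. The lists had 50, 28, 19, 17, 14, 13 and 7 genes tested. An unadjusted p under 0.05 in edgeR was seen for 2 of all these genes, NDUFAF5 and NDUFAF4 of the 50 assembly factors, against 2.85% of all genes tested. The groups did not overlap in 3 of all the list genes. NDUFAF5 was lower in EDN1 overexpression, against 0.668% of all genes tested. POLG and MTERF2, of the 28 genes of mitochondrial DNA upkeep and expression, were higher, against 1.38%. In each list below the gene with the smallest unadjusted p is named. Of 50 assembly factors tested, 28 had a positive and 22 a negative fold change, and the median log2 fold change was 0.03. NDUFAF5, which modifies a complex I subunit during assembly, averaged 17.9 ± 1.92 CPM in EDN1 overexpression and 24.2 ± 4.13 CPM in mock (SD, n = 4 each), with a log2 fold change of -0.44 (SE 0.17), and -0.36 and -0.46 within the first and second sets. Among 28 genes of mitochondrial DNA upkeep and expression, 11 were positive and 17 negative. POLG, the mitochondrial DNA polymerase, averaged 18.9 ± 2.29 CPM in EDN1 overexpression and 15.1 ± 1.69 CPM in mock, with a log2 fold change of 0.33 (SE 0.16), and 0.30 and 0.28 within the first and second sets.

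Regulators of mitochondrial biogenesis had 5 positive and 9 negative fold changes among 14 tested, with MYC at -0.51 (SE 0.25) on the log2 scale. PPARGC1A, a coactivator of mitochondrial biogenesis, averaged 11.97 ± 7.12 CPM in EDN1 overexpression and 12.8 ± 5.39 CPM in mock (it was chosen after its values were seen). Citrate cycle and pyruvate dehydrogenase genes had 8 positive and 11 negative fold changes among 19, with DLAT, the acetyltransferase of pyruvate dehydrogenase, at 0.23 (SE 0.14). Electron carrier and ubiquinone synthesis genes had 11 positive and 6 negative fold changes among 17, with PDSS2 at 0.21 (SE 0.17). Carriers and ATP synthase partners had 5 positive and 8 negative fold changes among 13. SLC25A6, an exchanger of ADP and ATP across the inner membrane, averaged 1017 ± 152 CPM in EDN1 overexpression and 1271 ± 167 CPM in mock, with a log2 fold change of -0.32 (SE 0.17). Among 7 related genes that are not members here, 4 were positive and 3 negative, with COX7A2L, a supercomplex assembly factor, at -0.18 (SE 0.17). CYC1, the cytochrome c1 of complex III, averaged 97.7 ± 15.8 CPM in EDN1 overexpression and 96.1 ± 13.6 CPM in mock. NDUFAB1, the acyl carrier protein held in complex I, averaged 342.8 ± 56.2 CPM in EDN1 overexpression and 342.8 ± 26.1 CPM in mock.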

How the data were processed

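HepG2 RNA was sequenced as 4 EDN1 overexpression and 4 mock libraries. Per the labels' protocols a Lexogen QuantSeq kit was used, which samples the ends of polyadenylated transcripts. Raw counts of reads and a gene length are deposited for each gene. Per the submitters' processing notes, Bowtie2, edgeR and hg19 were used. Versions, counter and strand setting were not given in the sources used here. Reads of antisense or overlapping genes cannot be separated. Groups and replicate numbers came from the sample titles.

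Rows of 1 symbol were summed (288 symbols stood on more than 1 row), except MARCH1 and MARCH2, leaving 24462 genes. edgeR 4.0.16 (R 4.3.3) filtered by filterByExpr (minimum count 10), scaled by TMM and tested the group by its quasi-likelihood test over 12577 genes calling genes at a Benjamini-Hochberg adjusted p under 0.05. Standard errors were taken as the absolute log2 fold change over the root of F. CPM use TMM-scaled sizes, and log2 CPM a prior count of 2. Mean CPM and deposited length had a Spearman correlation of 0.02 across 12577 genes, which are not independent, so levels were not divided by length, and CPM of different genes are on a scale per tag. The fit was tested on simulated data. No 2 libraries agreed within sampling noise (chi-square per degree of freedom 6.38 to 93.3).

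The members, lists, library sets and tests were chosen with earlier results of these data known. Named genes were all of complex II, the isoform sets, per complex the member of highest mean CPM and those of highest and lowest fold change, members called or with separated groups, the 3 highest and lowest between the sets, and per list the gene of smallest p. A gene and a marker these rules take are not reported here. Alternatives were other scalings and filters, DESeq2 1.42.0, limma voom (3.58.1), a replicate block, a term for the library set, each set alone, rows as deposited and leaving out each library. Alternatives for the difference between the sets were chosen after seeing the data.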

Additional observations from a re-analysis of the deposited data

Results flagged for a closer look

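Among the named genes and complex sums, 66 groups of 4 libraries were examined for a library whose gap to the nearest other, divided by the whole range, passed Dixon's 95% critical value, and chance flags about 1 in 20 such groups. There were 3. COX6A1 was low in EDN1 3, with 88.0 CPM against 108 to 112 CPM in the other EDN1 overexpression libraries. ATP5C1 was high in mock 4, with 127 CPM against 88.2 to 91.9 CPM in the other mock libraries. NDUFB9 was also high in mock 4, with 320 CPM against 175 to 194 CPM in the other mock libraries. Mock 4 is the lone mock library of the second set, in which EDN1 3 and EDN1 4 were also higher than EDN1 1 and EDN1 2 for ATP5C1 and NDUFB9. No member's group effect differed between the library sets by an interaction term in edgeR's quasi-likelihood test (0 of 77 at an unadjusted p under 0.05, smallest adjusted p = 1.00).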

How the results depend on the processing

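The count of members past the threshold was 0 under every alternative run, and the count of genes past it was 1, except for DESeq2, which called 3 genes. At an unadjusted p under 0.05 there were at most 2 members, without EDN1 2. The median log2 fold change of the members moved by less than its spread between libraries and ran from -0.03 (without EDN1 1) to 0.09 (without EDN1 4). The ratio of complex sums also moved by less than the spread under every scaling and library left out. Of 560 values of 28 named genes under the alternatives, 36 changed sign, 35 of them in genes within 1 SE of 0. The exception was ATP5L2, at 0.066 in the second library set alone. With the replicate number as a block, 0 members and 1 gene were called and the members' median was 0.03. Libraries of the same number did not deviate together throughout (correlations 0.48, 0.15, -0.15 and 0.53), so the numbers were not taken as pairs. The median difference between the library sets was -0.08 and ran from -0.15 to -0.04, and that of NDUFA4L2, -1.06, was -1.32 without mock 4. Depth limits the 6 members not tested, which had at most 9 counts in any library.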
